A study of Homo sapiens with 6 samples.

Results

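The genes described here are 9 neighbours of UXS1 on the long arm of human chromosome 2, in band 2q12: TGFBRAP1, C2orf49, FHL2 and NCK2 on the centromere side of UXS1, and GCC2, LIMS1, RANBP2, CCDC138 and SH3RF3 on its telomere side. They were chosen by name and position, with UXS1 itself left out, from the 28317 genes of the deposited tables, and all 9 passed the filter on low counts. RNA was sequenced from A549, an established and aneuploid human lung adenocarcinoma cell line. In the UXS1 KO group, cells received lentiCRISPR v2, a lentiviral vector that carries Cas9, with the UXS1 guide g1. In the CTRL group, cells received the same vector with a non-targeting guide. Both groups were kept in puromycin for 5 days and collected on day 7 after infection, with 3 libraries in each group and 21121489 to 22160405 counts per library. No label names a single clone or says whether the triplicates were separate infections, so p-values measure only the spread among these cultures. All 10 epithelial and A549 markers examined were detected, KRT8 at 7640 CPM (counts scaled to the library total) in UXS1 KO and 7440 CPM in CTRL, and 6 of the 10 were called. KRT7 fell by 0.69, while CDH1 rose by 0.86, EPCAM by 0.67, KRT19 by 0.55, AKR1C1 by 0.47 and AKR1B10 by 0.12 (edgeR adjusted p under 0.05). The T cell marker CD3E had no counts. Of 3 leukocyte markers 2 were in the tables, and their summed level was 6.58 to 7.21 TPM in UXS1 KO and 1.61 to 2.11 TPM in CTRL, from the B cell marker CD79A. The 3 fibroblast markers summed to 6.10 to 7.97 TPM in UXS1 KO and 5.96 to 6.33 TPM in CTRL. LUM was higher, at 1.05 CPM in UXS1 KO and 0.527 CPM in CTRL (edgeR adjusted p = 0.011). COL1A1 was not called, at 14.8 CPM in UXS1 KO and 14.2 CPM in CTRL (edgeR adjusted p = 0.52). DCN had 2 counts in UXS1 KO and 0 in CTRL. The endothelial markers PECAM1 and CDH5 summed to 0.473 to 0.75 TPM in UXS1 KO and 0.436 to 0.895 TPM in CTRL. The part of these markers in the results was not tested.

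Cas9 cuts both strands of the DNA at the site its guide matches, and the cell rejoins the ends, often with a small insertion or deletion. Larger deletions, rearrangements and loss of the chromosome part beyond the cut have also been described in human cells, and genes near or beyond a cut can be affected. A non-targeting guide makes no such cut, so the cut on chromosome 2 and the loss of UXS1 cannot be told apart in this comparison. The position of the cut is not given in the sources used here. Distances below are therefore gaps between gene bodies, and DNA copy number was not measured.

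UXS1, the enzyme that makes UDP-xylose, had 34.9, 34.6 and 34.2 CPM in UXS1 KO and 61.2, 65.1 and 65.4 CPM in CTRL, 54.1% of the CTRL mean. Among its 9 neighbours, 5 were lower in UXS1 KO, 1 was higher and 3 were not called (edgeR quasi-likelihood test, Benjamini-Hochberg adjusted p under 0.05 over 15757 genes). Over all genes tested, 23.7% were lower and 24.5% were higher, 48.2% in either direction. DESeq2 called 39.2% of all genes, and limma on log2(TPM + 1) called 39.7%, with 19.6% higher. The median log2 fold change of the 9, UXS1 KO minus CTRL, was -0.24, against -0.00 over all genes tested. None of the 9 reached an absolute log2 fold change of 1, and none reached that of UXS1, -0.89 (SE 0.048). The CPM of the groups did not overlap in 7 of the 9, 6 of them lower in UXS1 KO. Over all genes tested the groups did not overlap in 54.5%, with every UXS1 KO library below every CTRL library in 26.9%.

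**Figure D1:**
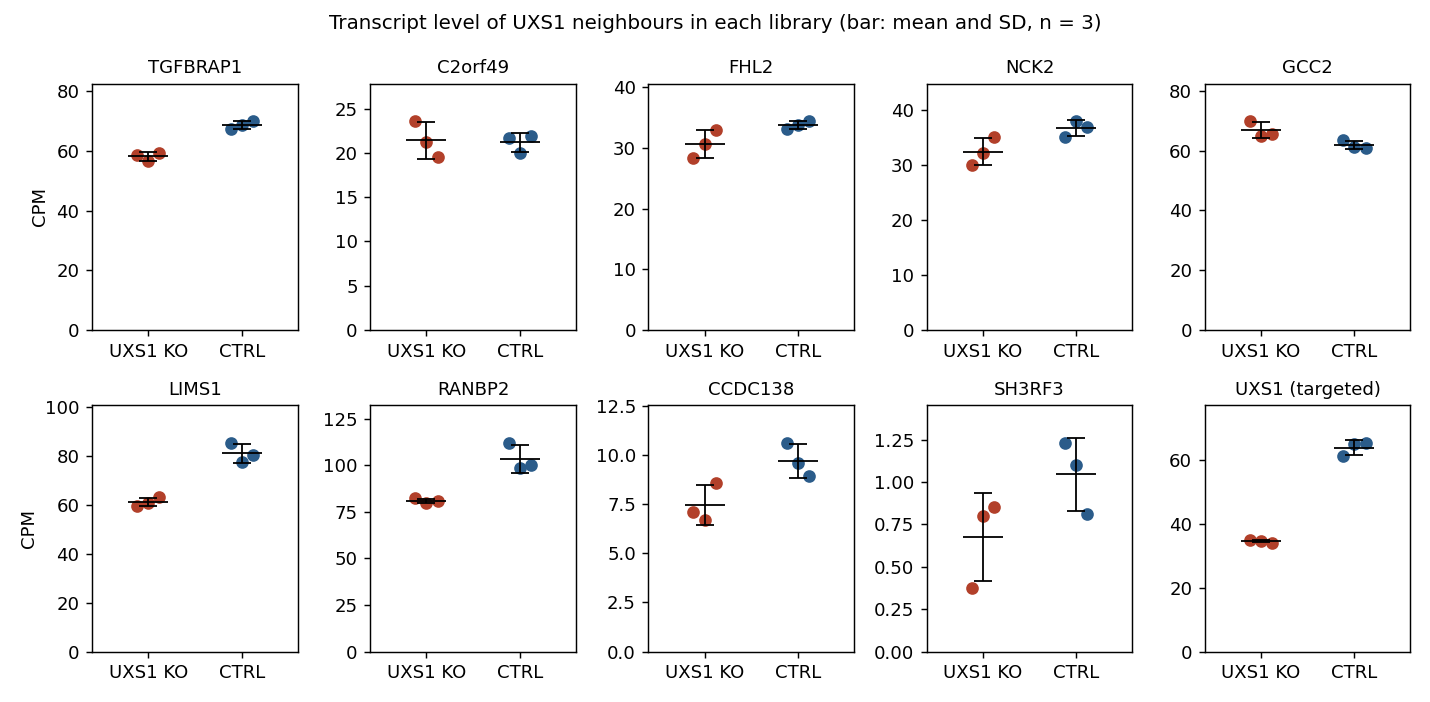
CPM of each neighbour and of UXS1 in each library, with the mean and SD of 3 libraries as black bars, UXS1 KO left and CTRL right; each panel starts at 0. LIMS1, RANBP2 and CCDC138 lie lower in every UXS1 KO library than in any CTRL library, GCC2 lies higher, and C2orf49 and SH3RF3 overlap.

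The sequences around the transcription starts of 4 neighbours are shown because LIMS1, RANBP2 and CCDC138 lie side by side and all fell, and because NCK2 is the member nearest to UXS1. They are RefSeq windows on GRCh38.p14, plus strand, that run from upstream of a start to shortly past it, numbered from base 1 of the window. In the windows of LIMS1, CCDC138 and NCK2, capitals mark matches to the motifs searched on both strands; in that of RANBP2 they mark a direct repeat.
LIMS1 chr2:108534220-108534519: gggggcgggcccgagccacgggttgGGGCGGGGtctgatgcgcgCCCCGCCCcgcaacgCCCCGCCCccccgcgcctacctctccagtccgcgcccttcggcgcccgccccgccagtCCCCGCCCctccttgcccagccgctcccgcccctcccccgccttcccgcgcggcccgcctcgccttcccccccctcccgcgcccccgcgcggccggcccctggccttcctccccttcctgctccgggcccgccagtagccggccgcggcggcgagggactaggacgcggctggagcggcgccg
RANBP2 chr2:108719232-108719531: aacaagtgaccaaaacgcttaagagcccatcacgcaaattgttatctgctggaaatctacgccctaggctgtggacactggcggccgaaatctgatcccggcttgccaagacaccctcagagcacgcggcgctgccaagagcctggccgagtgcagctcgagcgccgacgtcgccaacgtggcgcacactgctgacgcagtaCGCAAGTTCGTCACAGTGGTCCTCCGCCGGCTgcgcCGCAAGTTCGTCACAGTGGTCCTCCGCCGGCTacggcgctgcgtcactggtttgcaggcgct
CCDC138 chr2:108786500-108786799: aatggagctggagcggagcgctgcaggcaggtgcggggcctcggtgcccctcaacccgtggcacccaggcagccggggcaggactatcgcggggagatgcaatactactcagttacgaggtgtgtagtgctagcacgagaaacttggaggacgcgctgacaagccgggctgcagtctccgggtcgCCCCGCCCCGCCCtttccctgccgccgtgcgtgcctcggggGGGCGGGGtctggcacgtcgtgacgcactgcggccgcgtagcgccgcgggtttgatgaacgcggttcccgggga
NCK2 chr2:105851597-105851896: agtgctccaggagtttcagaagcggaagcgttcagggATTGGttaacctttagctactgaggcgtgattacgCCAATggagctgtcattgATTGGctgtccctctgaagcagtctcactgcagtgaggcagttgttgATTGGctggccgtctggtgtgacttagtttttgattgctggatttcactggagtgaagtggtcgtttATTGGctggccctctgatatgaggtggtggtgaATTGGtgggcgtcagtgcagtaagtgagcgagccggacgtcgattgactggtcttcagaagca
For LIMS1 the first of 4 windows is shown and for CCDC138 the first of 2. The LIMS1 window, 83.3% G and C, held 4 matches to the SP1 box GGGCGGGG, and the CCDC138 window held 3, of which the first 2 overlap. This motif was present in 22.8% of 35116 windows of the same length. The NCK2 window, which lies inside the gene body as GENCODE draws it, held 6 matches to CCAAT, a motif present in 34.6% of windows. These shares are of windows with at least 1 match. How often windows hold as many matches as those shown was not computed. The RANBP2 window held none of the motifs searched, which besides these were CACGTG (in 7.26% of windows), TTTGAA (15.2%) and the CArG box (1.29%). It held instead 2 copies of a stretch of 32 bases, at bases 203 to 234 and 239 to 270, and a repeat of at least that length stood in 0.763% of windows. None of the motifs searched was thus common to the windows shown for LIMS1, RANBP2 and CCDC138. RefSeq windows were at hand for 8 of the 9 members.

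On the centromere side no member moved by more than 0.24 on the log2 scale. TGFBRAP1 (ENSG00000135966.13, GRCh38 chromosome 2, positions 105264391 to 105330034, minus strand, 0.763 Mb from UXS1) encodes a subunit of the CORVET complex, which tethers early endosomes. It had 58.6, 56.5 and 59.5 CPM in UXS1 KO and 67.5, 68.7 and 70.0 CPM in CTRL. All UXS1 KO libraries lay below all CTRL libraries, and the gene fell by 0.24 on the log2 scale (SE 0.043, edgeR adjusted p = 4.4e-05). NCK2 (ENSG00000071051.14, positions 105744897 to 105894274, plus strand), an adaptor that links receptor tyrosine kinases to actin assembly, is the nearest member, 0.199 Mb from UXS1. It had 30.1, 32.2 and 35.1 CPM in UXS1 KO and 35.2, 38 and 37.0 CPM in CTRL. The groups touched without overlapping, and NCK2 fell by 0.18 (SE 0.058, edgeR adjusted p = 0.014). Its call was lost without UXS1 KO replicate 1 (edgeR adjusted p = 0.125) and without CTRL replicate 2 (edgeR adjusted p = 0.0567). It was also lost on log2(TPM + 1) with no filter (limma adjusted p = 0.0975). The adjusted p of NCK2 ran from 0.00344 to 0.125 over 15 alternatives.

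FHL2 and C2orf49 were not called. FHL2 (ENSG00000115641.19, positions 105357712 to 105438513, minus strand), a LIM-domain cofactor of transcription found at adhesions and in the nucleus, had 28.4, 30.7 and 32.9 CPM in UXS1 KO and 33.1, 33.7 and 34.4 CPM in CTRL. Its groups did not overlap, with a difference of -0.14 on the log2 scale (SE 0.058, edgeR adjusted p = 0.052). Without UXS1 KO replicate 3, the highest of its group, it was called lower (edgeR adjusted p = 0.0166), and the highest adjusted p among 15 alternatives was 0.303. C2orf49 (ENSG00000135974.10, positions 105337359 to 105349211, plus strand), also known as ashwin and found with the human tRNA ligase complex, lies between TGFBRAP1 and FHL2. It had 23.6, 21.2 and 19.5 CPM in UXS1 KO and 21.7, 20 and 21.9 CPM in CTRL, groups that overlap fully. Its log2 fold change was 0.01, with a 95% interval from -0.12 to 0.15 (edgeR adjusted p = 0.88). It lies 7.33 kb from TGFBRAP1, and the difference in log2 fold change between the pair, C2orf49 minus TGFBRAP1, was 0.25 (SE 0.083).

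On the telomere side, 3 adjacent genes fell by similar amounts. LIMS1 (ENSG00000169756.16, positions 108534355 to 108687246, plus strand, 2.34 Mb from UXS1) encodes PINCH1, a LIM-domain adaptor that binds integrin-linked kinase at focal adhesions. It had 59.8, 60.8 and 63.2 CPM in UXS1 KO and 85.4, 77.6 and 80.4 CPM in CTRL. No UXS1 KO library came near the CTRL range, and LIMS1 fell by 0.41 (SE 0.045, edgeR adjusted p = 2.6e-08), to 75.5% of the CTRL mean. RANBP2 (ENSG00000153201.16, positions 108719481 to 108785811, plus strand, 2.525 Mb), the nucleoporin on the cytoplasmic filaments of the nuclear pore that binds Ran and promotes SUMO transfer, had 82.2, 79.9 and 80.9 CPM in UXS1 KO and 112, 98.4 and 100 CPM in CTRL. The UXS1 KO libraries were tightly grouped and all lay below CTRL, where replicate 1 was the highest. RANBP2 fell by 0.35 (SE 0.045, edgeR adjusted p = 3.3e-07). CCDC138 (ENSG00000163006.12, positions 108786757 to 108885477, plus strand, 2.592 Mb), a coiled-coil protein, had 7.07, 6.69 and 8.59 CPM in UXS1 KO and 10.6, 9.57 and 8.91 CPM in CTRL. The groups lay close without overlapping. CCDC138 fell by 0.38 (SE 0.10, edgeR adjusted p = 0.0041), a call lost on log2(TPM + 1) (limma adjusted p = 0.0501, and 0.121 with no filter). It starts 0.946 kb past the end of RANBP2, and their log2 fold changes differed by -0.02 (SE 0.11), CCDC138 minus RANBP2.

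Of the members that flank this trio, 1 was higher and 1 was not called. GCC2 (ENSG00000135968.21, positions 108448561 to 108509415, plus strand, 2.254 Mb from UXS1), a golgin of the trans-Golgi network with a GRIP domain, had 69.9, 65.1 and 65.7 CPM in UXS1 KO and 63.5, 61.2 and 60.9 CPM in CTRL. Each UXS1 KO library was above each CTRL library, and GCC2 rose by 0.11 (SE 0.044, edgeR adjusted p = 0.037). The call was lost in 8 of 15 alternatives. It was lost without UXS1 KO replicate 1 (edgeR adjusted p = 0.219), CTRL replicate 2 (0.0828) or CTRL replicate 3 (0.101). It was also lost with DESeq2 (adjusted p = 0.104), with no filter (edgeR adjusted p = 0.0735) and with limma on log2 TPM. Over the 15 alternatives the lowest adjusted p was 0.0155 and the highest 0.219. LIMS1 starts 24.9 kb past the end of GCC2, and between this pair the log2 fold change differed by -0.52 (SE 0.063), LIMS1 minus GCC2, the widest step between neighbouring members. SH3RF3 (ENSG00000172985.11, positions 109129348 to 109504632, plus strand, 2.935 Mb), a ubiquitin ligase of the POSH family, was barely detected, with 8, 17 and 19 counts in UXS1 KO and 27, 24 and 17 counts in CTRL. The groups overlapped, and at this depth its difference of -0.63 on the log2 scale was not called (SE 0.30, edgeR adjusted p = 0.093).

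Levels per length put NCK2 and TGFBRAP1 first and SH3RF3 last in both groups. In UXS1 KO, TPM (abundance scaled for transcript length and depth) averaged 38.1 ± 3.29 for NCK2, 35.5 ± 1.45 for TGFBRAP1, 27.5 ± 1.12 for LIMS1 and 22.9 ± 0.548 for RANBP2 (SD, n = 3 each). GCC2 followed at 18.4 ± 0.799, C2orf49 at 16.2 ± 1.47 and FHL2 at 16.1 ± 1.32, then CCDC138 at 4.48 ± 0.666 and SH3RF3 at 0.396 ± 0.153 TPM. In CTRL the order was NCK2 at 43.0 ± 0.879, TGFBRAP1 at 42 ± 0.829, LIMS1 at 36.4 ± 2.51, RANBP2 at 29.4 ± 2.66, FHL2 at 17.8 ± 0.371, GCC2 at 17.1 ± 0.693 and C2orf49 at 16.1 ± 1.05 TPM. CCDC138 stood at 5.84 ± 0.594 and SH3RF3 at 0.615 ± 0.131 TPM. NCK2 and TGFBRAP1, and likewise FHL2 and C2orf49 in UXS1 KO, differed by less than or about their SD. SH3RF3 varied most within a group, with a coefficient of variation of its CPM of 38.4% in UXS1 KO and 20.5% in CTRL.

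Some of these genes have near-identical copies. How the counting treated reads that match several copies is not given in the sources used here. RANBP2 and GCC2 gave rise to the RGPD family on the same chromosome, and LIMS1 to LIMS3. Of all 50-base words in the annotated transcripts, 27.2% of those of RANBP2, 21.1% of those of LIMS1 and 14.6% of those of GCC2 also occurred in transcripts of another gene. For TGFBRAP1, C2orf49 and FHL2 this share was at most 2.02%, and for NCK2, CCDC138, SH3RF3 and UXS1 no word was shared. Counts of the 4 copies examined were low: RGPD8 summed to 115 counts in UXS1 KO and 140 in CTRL, RGPD3 16 and 15, RGPD4 5 and 7, and RGPD1 0 and 3. RGPD5 shares 13.21% of the words of GCC2, and LIMS3 shares 20.35% of those of LIMS1. Neither was found by name among the counted genes, and neither was analysed here. RANBP2 summed to 5248 counts in UXS1 KO and 6703 in CTRL. No source says that counting was strand-specific, and genes on the opposite strand overlap 8.09% of the exonic bases of NCK2, 2.45% of C2orf49, 1.84% of FHL2 and 0.467% of GCC2, and none of the other members.

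The 9 members are a part of the neighbourhood. Within 5 Mb of UXS1, 36 genes on chromosome 2 were tested, members included: 10 (27.8%) were lower in UXS1 KO and 13 (36.1%) were higher, with a median log2 fold change of 0.02. These shares lie near or above the 23.7% and 24.5% over all genes, and the negative median of the members is not that of the wider window. The 36 genes together took 0.12%, 0.1189% and 0.1204% of all counts in the UXS1 KO libraries. In the CTRL libraries they took 0.1289%, 0.1223% and 0.1262%, each above every UXS1 KO library. This difference was not tested. On the centromere side 3 of 18 genes were lower and 7 higher, and on the telomere side 7 of 18 were lower and 6 higher. Within 2 Mb only 7 genes were tested, of which 3 were lower, with a median of -0.14. Besides members, these include MRPS9, a mitochondrial ribosomal protein gene, at 15.6 ± 1.05 CPM in UXS1 KO and 17.7 ± 1.15 CPM in CTRL (SD, n = 3 each), which fell by 0.18 (edgeR adjusted p = 0.049). They also include ST6GAL2, a sialyltransferase gene 0.607 Mb beyond UXS1 on the telomere side, at 49.1 ± 2.44 CPM in UXS1 KO and 51.1 ± 2.42 CPM in CTRL (SD, n = 3 each), which was not called (log2 fold change -0.06, edgeR adjusted p = 0.37). The other called genes within 5 Mb on the telomere side, named after their values were seen, moved both ways. SEPTIN10, a cytoskeletal septin gene, fell by 0.40 (edgeR adjusted p = 2.2e-08), SOWAHC by 0.53 (1.1e-07), the mitotic checkpoint kinase gene BUB1 by 0.80 (9.6e-14) and the long noncoding RNA MIR4435-2HG by 0.66 (8.4e-09). The sulfotransferase gene SULT1C2 rose by 1.19 (edgeR adjusted p = 1.1e-06), EDAR by 0.86 (0.046), the pseudogene AC140479.2 by 0.53 (0.0044), MALL by 0.23 (4.5e-04) and BCL2L11, which encodes the apoptosis inducer BIM, by 0.22 (0.0051).

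**Figure D2:**
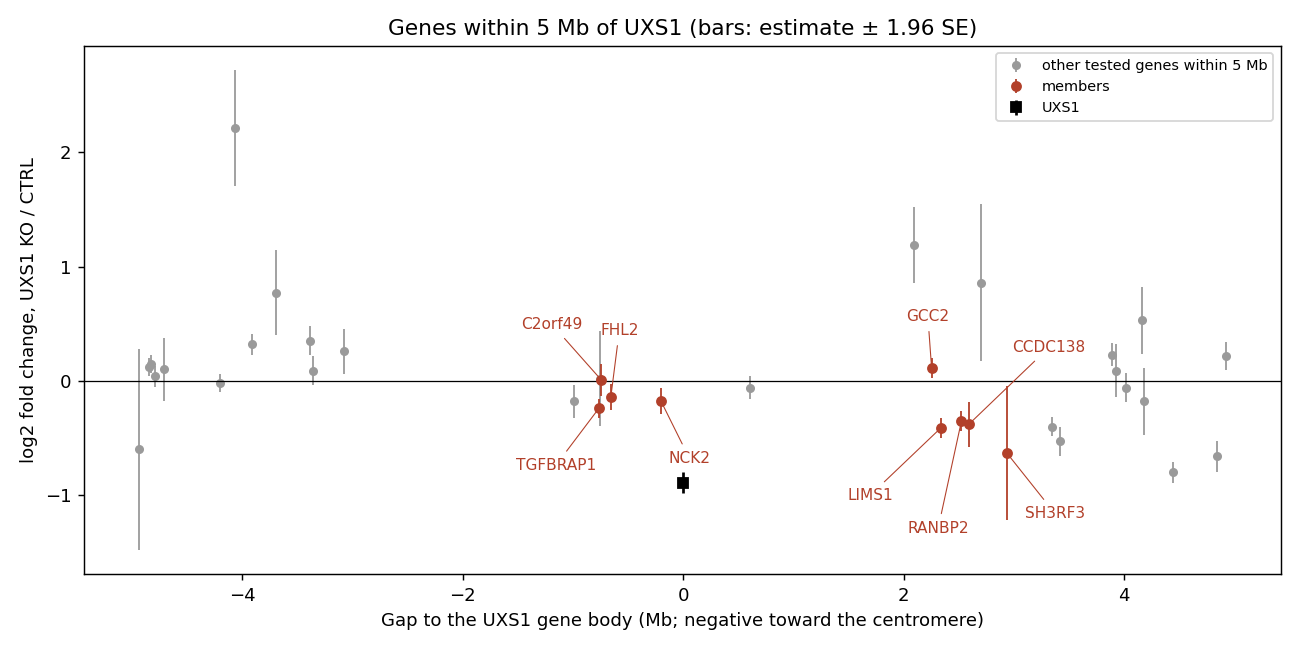
Log2 fold change, UXS1 KO over CTRL, of every gene tested within 5 Mb of UXS1, against the gap to the UXS1 gene body in Mb; bars are 95% intervals from the SE, members are red and UXS1 is the black square. LIMS1, RANBP2 and CCDC138 sit together at -0.41, -0.35 and -0.38, next to GCC2 at 0.11, and genes on both sides of 0 lie in the window.

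Over the whole chromosome, genes beyond UXS1 toward the telomere were more often lower than those before it. Of 539 genes tested on the telomere side of UXS1, 225 (41.7%) were lower in UXS1 KO and 86 (16%) were higher, with a median log2 fold change of -0.12. With no filter on low counts, 971 genes were tested there and the median was -0.0403, and on log2(TPM + 1) with no filter it was -0.0203. Of 68 genes between the centromere and UXS1, 20 (29.4%) were lower and 11 (16.2%) higher, with a median of 0.00. Of 424 genes on the short arm, 114 (26.9%) were lower and 90 (21.2%) higher, with a median of -0.04. Chromosome 2 had the lowest median and the highest share of lower genes, 34.9%, of 23 chromosomes. On the 22 other chromosomes the share of lower genes ran from 17.4% to 27.3% and the median from -0.05 to 0.04. Genes of a segment are not independent replicates, and no segment was tested against other chromosomes.

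**Figure D3:**
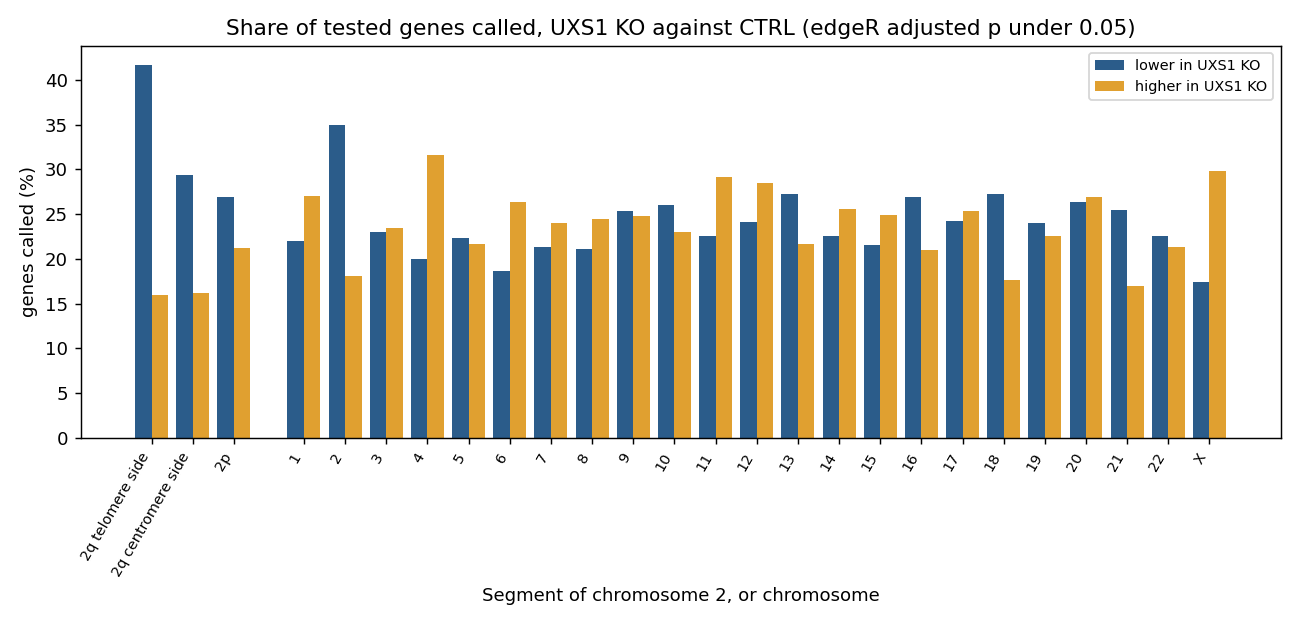
Share of tested genes lower (blue) or higher (orange) in UXS1 KO than in CTRL, in percent, for the 3 segments of chromosome 2 at left and for each chromosome at right. The telomere side of UXS1 stands at 41.7% lower and 16% higher, and no other chromosome passes 27.3% lower.

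Along the arm beyond UXS1, every bin of 20 Mb had a larger share of lower genes than the 23.7% over all genes tested. The share of lower genes on the telomere side was 44.1% within 20 Mb, 62.7% from 20 to 40 Mb, 36.7% from 40 to 60 Mb and 30.6% from 60 to 80 Mb. It was 38.5% from 80 to 100 Mb, 37.4% from 100 to 120 Mb and 48.1% beyond. The bin from 20 to 40 Mb held 51 genes, 32 lower and 3 higher, with a median of -0.22. The bin from 100 to 120 Mb also had 27.5% higher genes, above the 24.5% over all genes tested, and a median of -0.04. Toward the short arm the bins ran from 20.5% to 36.7% lower, and the outermost held only 13 genes. On that side only the bin from 60 to 80 Mb, at 20.5%, lay below 23.7%, so a share above it was not particular to the telomere side. In running windows of 11 neighbouring genes, 5 successive windows over the telomere-side members each had a median of -0.354. They were centred 2.66 to 3.49 Mb past the start of UXS1. Windows moved along gene by gene, so successive windows share most of their genes and equal medians in a row are not separate measurements. The lowest on the chromosome was -0.356, at 26.56 to 27.03 Mb, and the window nearest to UXS1 had -0.137. The same arm also held the highest median on the chromosome, 0.707, in windows centred 127.67 to 127.88 Mb from UXS1.

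**Figure D4:**
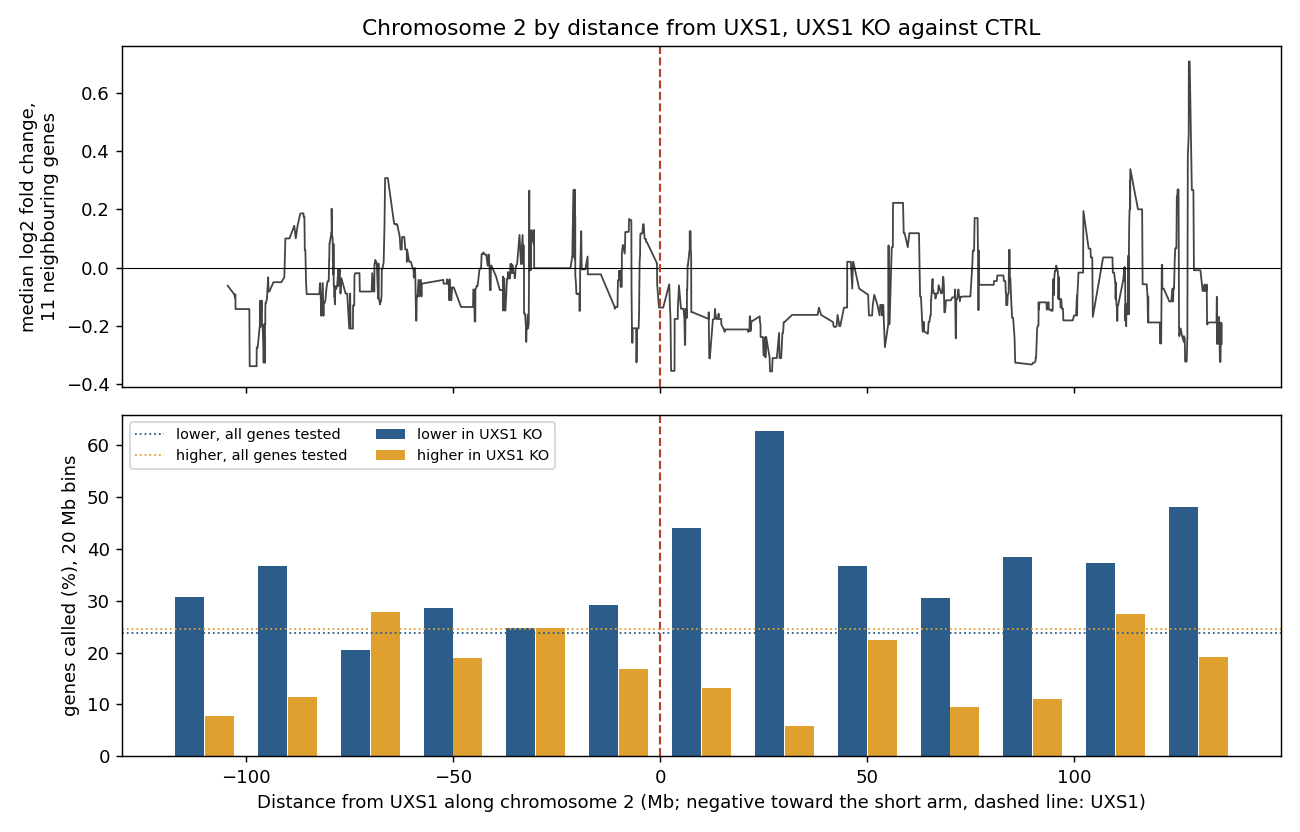
Top, median log2 fold change in running windows of 11 neighbouring tested genes along chromosome 2; bottom, percent of tested genes lower (blue) or higher (orange) in UXS1 KO in bins of 20 Mb, with the shares over all genes tested as dotted lines. The horizontal axis is the distance from UXS1 in Mb, and the bin from 20 to 40 Mb on the telomere side is highest at 62.7% lower.

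The shift beyond UXS1 was of similar size in each UXS1 KO library. Each library was set against the mean log2 CPM of the CTRL libraries, with a CTRL library set against the other CTRL libraries. The median over the 539 telomere-side genes was -0.129, -0.115 and -0.121 in UXS1 KO and 0.023, -0.009 and -0.006 in CTRL. For the 68 genes between centromere and UXS1 the medians were -0.037, -0.003 and 0.00 in UXS1 KO and -0.018, 0.00 and 0.03 in CTRL, which overlap. For the short arm they were -0.037, -0.05 and -0.023 in UXS1 KO and 0.016, -0.005 and -0.014 in CTRL, all lower in UXS1 KO but by less. Over the other chromosomes together they lay between 0.005 and 0.006 in UXS1 KO and between -0.003 and 0.004 in CTRL, and the median of no single other chromosome went below -0.07 in a UXS1 KO library or -0.053 in a CTRL library. Telomere-side genes took 2.612% ± 0.018 of all counts in UXS1 KO and 2.804% ± 0.036 in CTRL (SD, n = 3 each; exact two-sided permutation p = 0.1, the smallest that 3 against 3 libraries allow). The groups were also fully apart for the short arm, at 2.808% ± 0.0065 in UXS1 KO and 2.878% ± 0.035 in CTRL, and for the genes between centromere and UXS1, at 0.2887% ± 0.0012 in UXS1 KO and 0.297% ± 0.0019 in CTRL (SD, n = 3 each; exact permutation p = 0.1 for both). By this measure the separation was not particular to the telomere side. In these bulk samples, fewer cells with a transcript and less RNA per cell cannot be told apart.

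**Figure D5:**
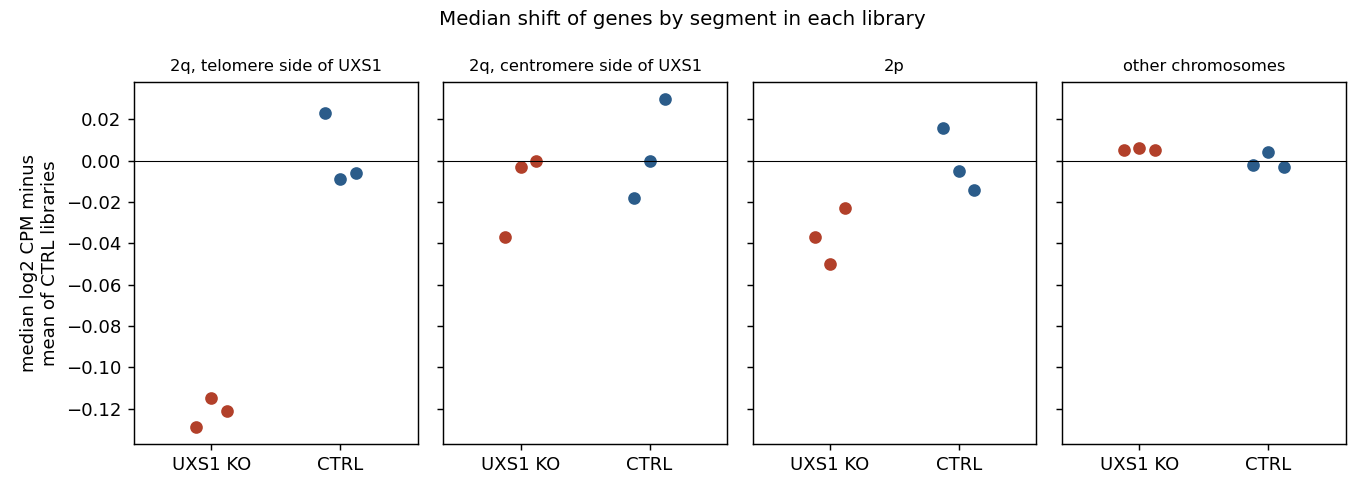
Median over genes of log2 CPM minus the mean of the CTRL libraries, for each library, UXS1 KO left and CTRL right, in the 3 segments of chromosome 2 and on the other chromosomes. On the telomere side of UXS1 the UXS1 KO libraries lie between -0.129 and -0.115, apart from CTRL, and on the other chromosomes both groups lie near 0.

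Genes that work with the members but lie elsewhere in the genome moved to differing extents; each gene said to have risen or fallen had an edgeR adjusted p under 0.05. Over all genes tested, 23.7% were lower and 24.5% higher, 48.2% in either direction. The lists hold 4 to 11 tested genes each, and none was tested against these shares. RANBP2 shares the Ran and SUMO cycle with 11 listed genes, of which 9 were lower in UXS1 KO, with a median of -0.19. The exportin XPO1 fell by 0.43, RAN itself by 0.37, RANBP1 by 0.46 and RANGAP1, the Ran GTPase activator that docks on RANBP2, by 0.34. These 4 had the smallest adjusted p of the 11 genes, and the others ran from -0.27 (RCC1) to 0.03 (SUMO3). RANBP2 itself fell by 0.35. Whether its fall goes with that of the list was not tested. Of 8 genes around the complex of LIMS1 with integrin-linked kinase, 3 were lower. The kindlin FERMT2 fell by 0.51, vinculin (VCL) by 0.35 and LIMS2, the close relative of LIMS1 that lies 21.444 Mb beyond UXS1 on the same arm, by 0.56. Talin (TLN1) was not called, at -0.04. Of 4 tested relatives and partners of FHL2, 3 were lower: the alpha-actinins ACTN4 by 0.51 and ACTN1 by 0.31, and FHL1 by 0.29.

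The counts below also stand beside 48.2% of all genes tested called in either direction. Around NCK2, 3 of 9 genes were lower and 1 higher. PAK2 fell by 0.25, ABI1 by 0.20 and DOCK1 by 0.19, while NCK1, the close relative of NCK2, rose by 0.16. Of 11 CORVET and HOPS tethering genes around TGFBRAP1, 3 were higher and 1 lower, with RAB5B up by 0.18, VPS18 by 0.15 and VPS39 by 0.13, and RAB5A at -0.11. Of 6 genes of the tRNA ligase complex, 2 were lower, DDX1 by 0.20 and RTCB by 0.14. Of 6 golgin and ARL1 genes around GCC2, 2 were higher and 2 lower: ARL1 rose by 0.24 and GOLGA1 by 0.12, while GOLGA4 fell by 0.12 and ARFRP1 by 0.15. Of 9 genes around SH3RF3, 3 were higher and 3 lower; SH3RF2 rose by 0.28, MAP3K10 by 0.20 and MAP3K11 by 0.13, while RAC1 fell by 0.18. SH3RF3 had the highest absolute log2 fold change of the members, and the genes whose log2 CPM resembled it most over the 6 libraries were DCLRE1A (Pearson r = 0.9795), SERTAD2 (0.9791) and XPA (0.9674). All 6 points share the same libraries and SH3RF3 has few counts, so this is a description only.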

How the data were processed

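RNA of 3 UXS1 KO and 3 CTRL cultures was sequenced. The authors deposited whole-number counts per gene and TPM values, per the file headers. STAR, featureCounts, DESeq2 and hg38 are named, without versions, per the submitters' processing notes. Strand setting and annotation release: not given in the sources used here. Groups and replicate numbers came from the sample titles.

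Counts were filtered with filterByExpr (minimum count 10), scaled by TMM (factors 0.987 to 1.01) and tested with edgeR 4.0.16 (R 4.3.3), group as the only term, two-sided, adjusted over 15757 genes. SE is the absolute log2 fold change over the root of F. CPM use the same factors. Positions, matched by identifier for 99.4% of tested genes, are from GENCODE 29 on GRCh38, which hg38 names; the boundary between arms was set at 93 Mb. The edgeR step was run on simulated data. It recovered 63.8% of 47 genes changed 1.25-fold and 92.6% of 54 genes changed 2-fold, with 7 false calls among 173. The simulation changed far fewer genes than were called here and gave all genes the same dispersion, so small changes can be missed and these shares are only a guide.

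Members and lists were chosen with earlier results of these data known, and promoter motifs after the sequences were seen. Named genes are UXS1, the members, protein-coding genes within 2 Mb, near-identical copies, up to 4 genes of each list by smallest adjusted p, and the genes most like 1 member; others are marked. RGPD5, LIMS3 and LIMS4 were not found by name and were not analysed here. No 2 libraries of a group were alike within counting error: their chi-square over its degrees of freedom was 1.6 to 3.39. Alternatives were DESeq2 1.42.0, other scalings and filters, limma 3.58.1 on log2 TPM with 1 or 0.1 added, the replicate block, other windows and gene types, and each library left out.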

Additional observations from a re-analysis of the deposited data

How the results depend on the processing

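UXS1, TGFBRAP1, LIMS1 and RANBP2 kept their direction and call under all 15 alternatives, with log2 fold changes of -0.917 to -0.851, -0.255 to -0.217, -0.437 to -0.367 and -0.389 to -0.293. The number of members higher was 0 with DESeq2, with no filter, on log2 TPM under each pseudocount and filter, and among the 6 members without RANBP2, GCC2 and LIMS1; it ran from 0 to 1 with a library left out. The number lower was 3 on log2(TPM + 1) with no filter and without RANBP2, GCC2 and LIMS1. C2orf49 changed sign with a library left out, between -0.058 and 0.079, with -0.025 without CTRL replicate 2. Within 5 Mb, 8 genes were higher on log2(TPM + 1) and log2(TPM + 0.1) and 7 with no filter; within 2 Mb 0 were higher (edgeR, 0 also at an unadjusted p under 0.05) and 3 lower, and within 10 Mb 33 of 105 were lower. Between centromere and UXS1, 7 were higher and 13 lower on log2 TPM with a filter, and 6 and 11 with none. On the telomere side 46 were higher among genes averaging at least 5 CPM, and 53 on log2 TPM with a filter. The share of lower genes there was 52.3%, against 27.8% of all genes, when only genes averaging at least 5 CPM were kept, and 17.3% against 9.89% on log2(TPM + 1) with no filter, and it ran from 37.1% to 39.5% with a library left out. The causes were not tested. Same-numbered libraries did not deviate together (correlations 0.005 to 0.034), so the replicate number pairs nothing; with the replicate block FHL2 was called lower (edgeR adjusted p = 0.0318) and no other member's call changed. SH3RF3 summed to 44 counts in UXS1 KO and 68 in CTRL, and its call could not be tested where a filter on TPM or on 5 CPM left it out.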
